A study of Mus musculus with 4 samples.

Results

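The insulin-like growth factor (IGF) axis was followed through 9 genes, the binding proteins Igfbp1 to Igfbp7, the ligand Igf1 and the receptor Igf1r, in single cells of the developing mouse kidney. The members were listed by gene symbol, and all 9 were found among the 20672 genes of the count matrices. Cells came from kidneys at embryonic day (E) 15.5 and 17.5, from newborn kidneys (P0), and from kidneys removed at E12.5 and grown for 12 days as a transplant in the epididymal fat of adult hosts. There was 1 library per group. The strain label is ICR for E15.5 and for P0, C57BL/6 for the E17.5 kidneys and C57BL/6N for the transplant, and the genotype of all 4 libraries is wild type. The host is given as C57BL/6N in one label and as NOD immunodeficient in the design text. How many kidneys or animals entered each library is not given in the sources used here.

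IGF1 and IGF2 bind the receptor tyrosine kinase encoded by Igf1r and signal through insulin receptor substrates and the PI3K and AKT kinases, which promote growth and survival. The binding proteins IGFBP1 to IGFBP6 are secreted and hold IGFs with high affinity, so that they can carry a ligand, withhold it or release it when cut by proteases such as PAPP-A. IGFBP7 binds IGFs only weakly, is laid down in the extracellular matrix and is known as a product of vessels and of podocytes.

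Each cell was placed in a class from UMIs of fixed marker genes, where a UMI counts 1 captured RNA molecule, and none of the 9 members was used for this. A member's level is its UMIs summed over the cells of a class and scaled to 1000000 UMIs of that class and library (CPM). Bracketed ranges are exact 95% intervals, Poisson for levels, conditional binomial for ratios and Clopper-Pearson for shares of cells. They cover counting error only, so with 1 library per group no difference was tested, and differences between animals, litters or dissociations are not measured. The libraries held 42430540 to 99068204 UMIs, and the 3463 to 7568 cells used in each had median depths of 6276.5 to 22585 UMIs, deepest at E15.5. All 4 libraries held cells of the kidney's own classes by their markers, with 78 to 468 podocytes and 166 to 1074 proximal tubule cells. Classes with under 20 cells are not given levels, which leaves out loop of Henle cells at E15.5, nephron progenitors in the transplant and macrophages at P0.

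Some features of the libraries move with the groups. UMIs of tdTomato, a reporter gene, numbered 8181 at P0 and 0 in the other libraries, although P0 is labelled wild type. Between 27 and 108 cell barcodes were shared by each pair of libraries. The software version in the file headers is 3.0.2 in both ICR libraries and 3.1.0 in both others, and so goes with strain. At P0 a list of 12 genes of dissociation stress had median log2 ratios over E15.5 of 0.76 to 3.33 by class, and a list of 10 hypoxia genes had 0.70 to 2.40, in both cases highest in endothelium. In the transplant the hypoxia list was lower than at P0, with medians of -0.73 to -2.14. The part of these features in the results below was not tested. Among the kidneys in situ, E17.5 differs from E15.5 and P0 in strain and software version as well as age. For any level at E17.5 these cannot be told apart. Strain, host, site and time of growth cannot be told apart in the transplant, and whether its vessel, stromal and blood cells came from the graft or the host was not tested.

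Each of the 9 genes had its own distribution over cell classes. Over the 6 classes with at least 20 cells in all 4 libraries, 4 members had their highest level in the same class throughout: Igfbp1 in proximal tubule, Igfbp3 and Igf1 in endothelium, and Igfbp7 in podocytes. The top class of the other 5 differed between libraries. Igfbp4 was highest in endothelium in situ and in stroma in the transplant. Igfbp5 was highest in stroma at E15.5 and in mural cells (smooth muscle, pericytes and renin cells) in the other libraries. Igf1r was highest in podocytes in situ and in proximal tubule in the transplant.

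**Figure D1:**
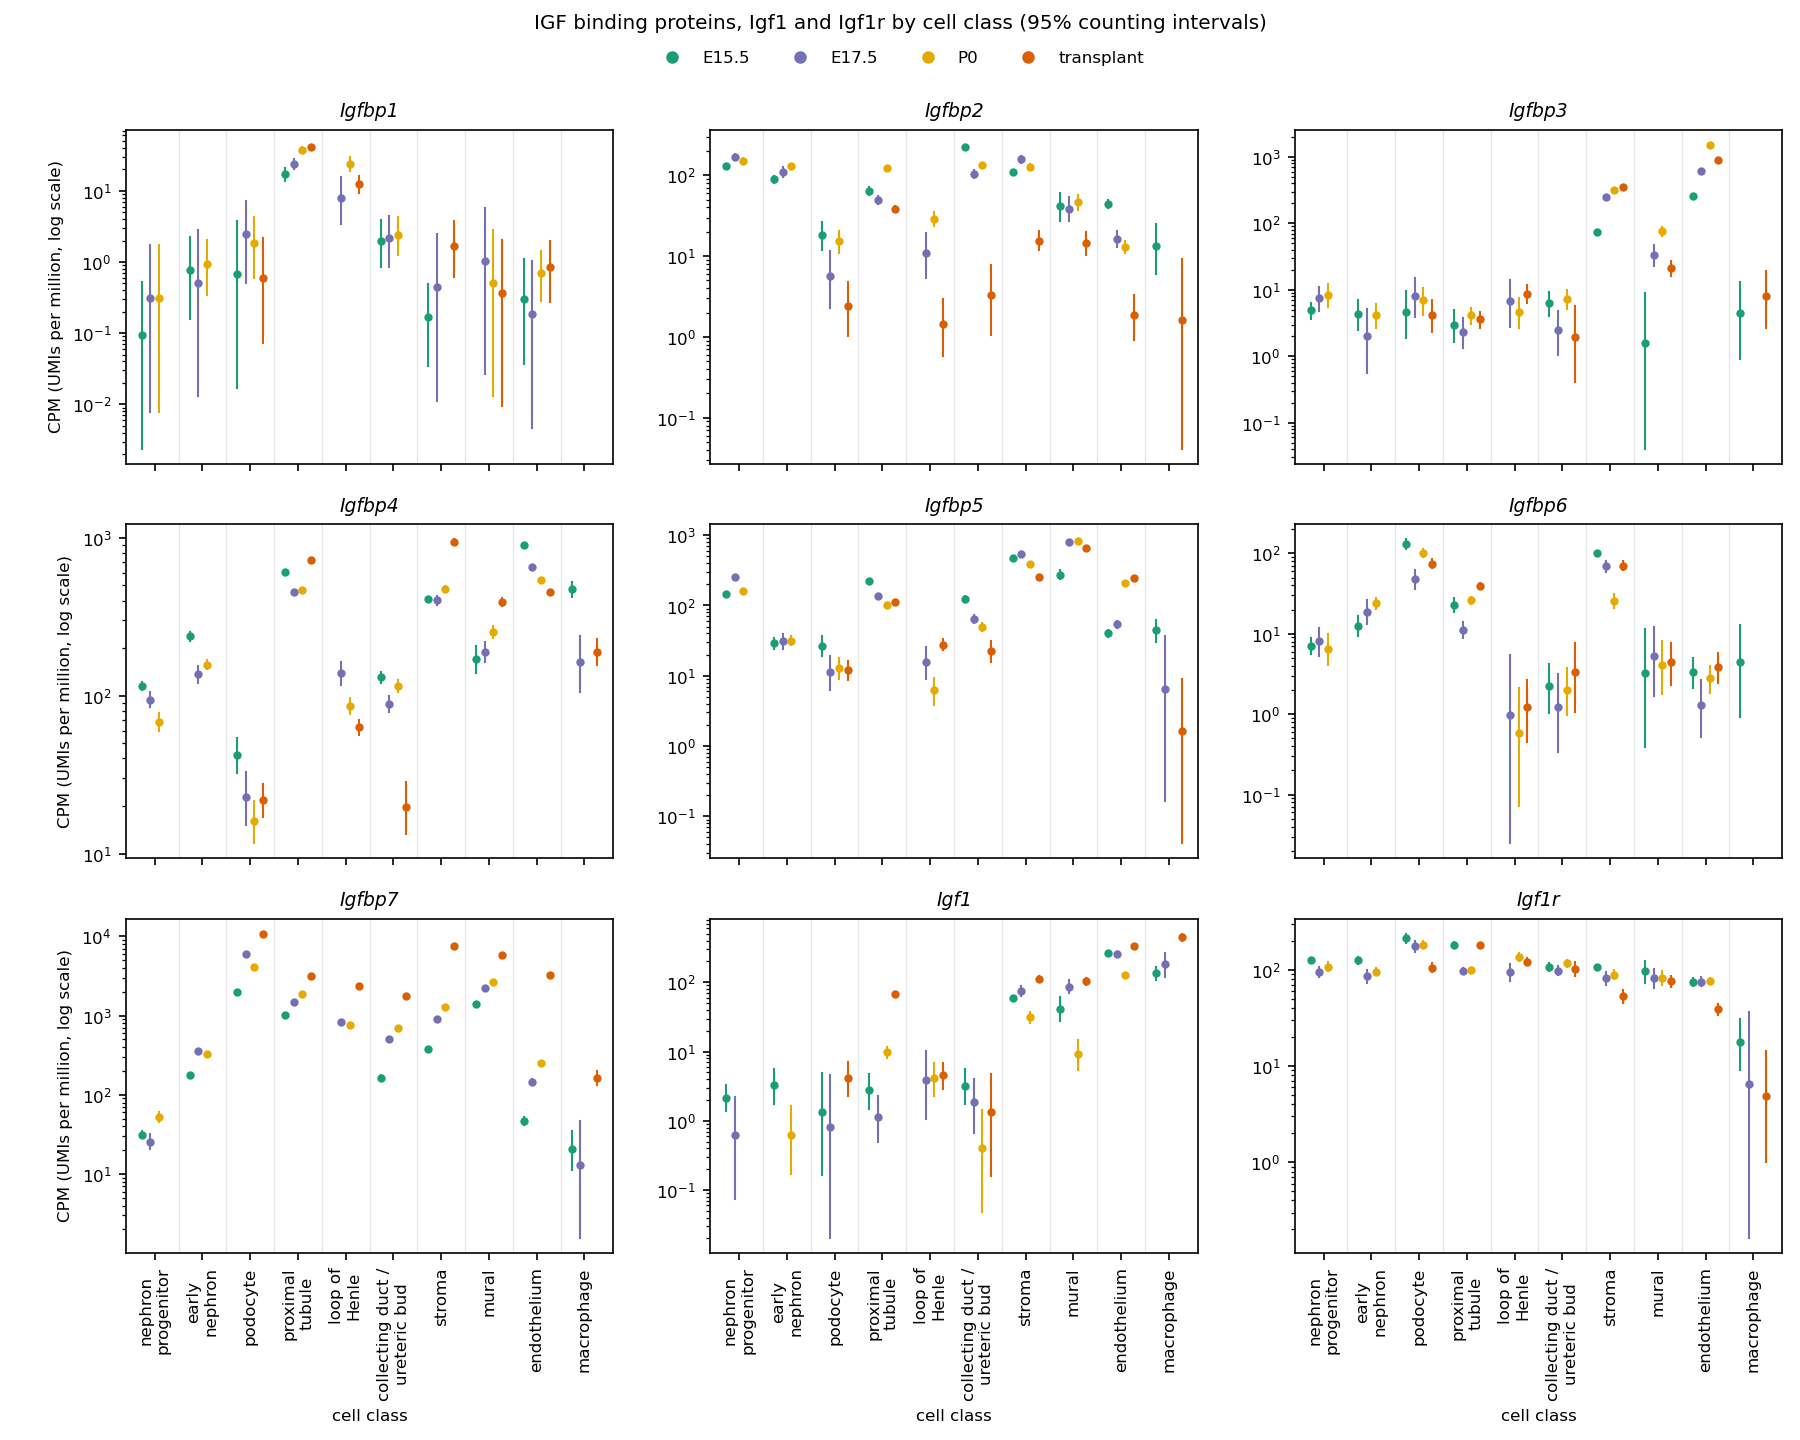
Level of each member in CPM (log axis) by cell class. Points are the 4 libraries (colours), bars are exact Poisson 95% intervals that cover counting error only, and points with 0 UMIs or under 20 cells are not drawn. Igfbp7 in the transplant lies above the other libraries, and Igfbp2 in the transplant below them, in the 6 classes with at least 20 cells in all 4 libraries.

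Levels were compared for P0 against E15.5, the transplant against E17.5 and the transplant against P0, in classes with at least 50 cells in both and for pairs of gene and class with at least 50 UMIs over both libraries. Of 63 pairs of member and class, 50 passed this filter for P0 against E15.5, and 9 were at least 2-fold higher and 7 at least 2-fold lower at P0. The same fold was passed by 7.02% of pairs over all genes for higher levels and by 7.69% for lower ones, against 18.0% and 14.0% of the members' pairs. Compared with E17.5, the transplant had 11 of 46 member pairs higher and 8 lower, which is 23.9% and 17.4% beside 9.80% and 5.05% over all genes. Compared with P0 it had 12 of 50 higher and 10 lower, 24.0% and 20% beside 12.9% and 5.74%. With ratios scaled by the median ratio of all genes in a class, the last split became 10 higher and 13 lower. That median lay between 0.20 and 0.39 on the log2 scale for the transplant against P0. The comparisons share libraries (P0 and the transplant each serve in 2), so their counts are not independent of each other. Nor are pairs of the same gene in different classes, and few members gave most pairs. For the transplant against P0, Igfbp7 gave 6 and Igf1 4 of the higher pairs, and Igfbp2 7 of the lower ones. Against E17.5, Igfbp7 gave 6 higher and Igfbp2 4 lower pairs. For P0 against E15.5, Igfbp7 gave 4 higher and Igfbp5 3 lower pairs.

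**Figure D2:**
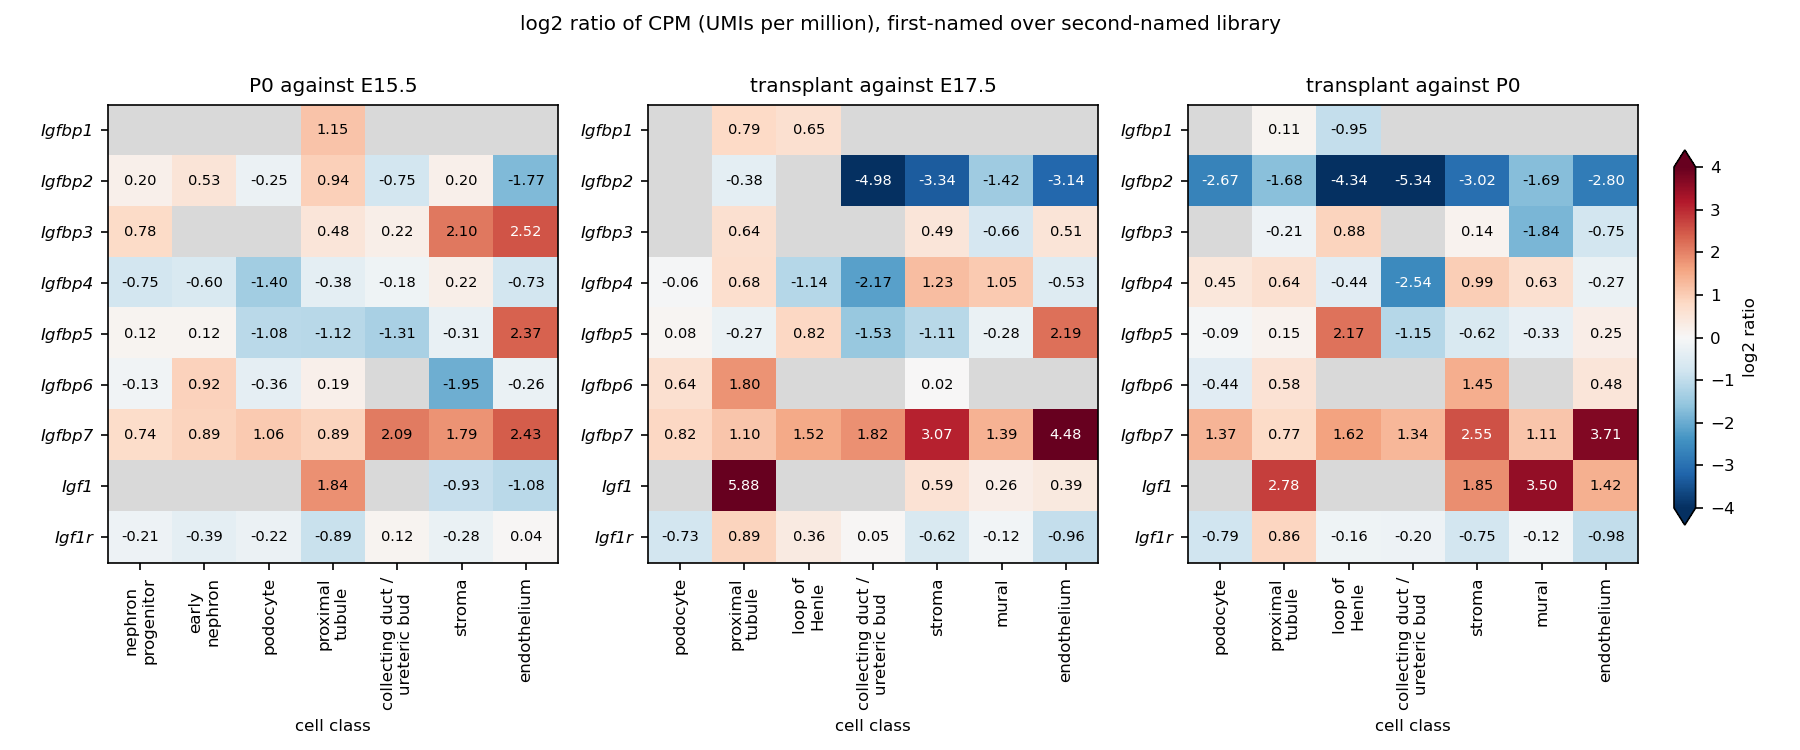
Log2 ratio of CPM for each member (rows) and class (columns) in the 3 comparisons, the first-named library over the second. Grey cells had under 50 UMIs over both libraries, and colours saturate at 4 while the printed ratio goes on to 5.88 for Igf1 in proximal tubule.

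Igf1, the ligand, had its largest levels in endothelium and, where macrophages could be measured, in macrophages. In endothelium the level was 266 CPM at E15.5 and 256 at E17.5, then 126 at P0, and 335 in the transplant. P0 was the lowest library, 2.11-fold [1.97, 2.27] below E15.5, and the transplant was 2.67-fold [2.48, 2.86] above P0. Within endothelium the level was highest in the capillary and venous subtype, marked by Plvap, Nr2f2 and Aplnr. This subtype had 305, 419, 239 and 1069 CPM from the youngest library to the transplant. Arterial cells stayed between 18.5 and 66.7 in the 4 libraries. Macrophages had 135, 182 and 447 CPM at E15.5, E17.5 and in the transplant, from 39, 31 and 98 cells.

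Proximal tubule, the segment that reabsorbs most of the filtered solutes, carried little Igf1 in situ and more in the transplant. Its level was 2.75 CPM [1.46, 4.69] at E15.5 and 1.15 [0.496, 2.26] at E17.5, 9.81 [8.18, 11.7] for P0, and 67.4 [63.3, 71.7] in the transplant. The transplant was 58.7-fold [29.7, 136] above E17.5, where only 8 UMIs were counted, and 6.87-fold [5.71, 8.33] above P0. In the same transplant library, loop of Henle cells had 4.53 and podocytes 4.20. Of transplant proximal tubule cells, 25.9% held an Igf1 UMI at their own depth (median 12096 UMIs). After thinning each cell to 2000 UMIs the share was 8.47% [6.88, 10.3], beside 0.288% [0.00730, 1.60] in loop of Henle cells (median 11952 UMIs, 5.76% before thinning). In situ the thinned shares in proximal tubule were 0.602%, 0.148% and 1.39% (6.63%, 0.890% and 9.72% before), and that of loop of Henle cells at P0 was 1.54%. By level, P0 proximal tubule lay above P0 loop of Henle cells, which had 4.12 CPM [2.25, 6.91], and above collecting duct and ureteric bud cells, which had 0.403 [0.0488, 1.45]. P0 podocytes had 0 UMIs in 468 cells. The 3.57-fold [2.02, 6.89] higher level at P0 than at E15.5 was below 2-fold without doublet removal (log2 ratio 0.45) and with cells classed by clustering (0.88). The summed level of the 8 macrophage markers in proximal tubule was 21.2 CPM at E17.5, 13.5 for P0 and 21.6 in the transplant, and that of the 10 endothelial markers was 53.4, 51.9 and 55.7. The gate limits these sums, because a cell entered a class only with at least 2 times the marker UMIs of the next class. They therefore cannot measure how much RNA of macrophages or endothelium these cells carried.

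In stroma, the interstitial mesenchyme, Igf1 was 59.5, 75.0, 31.3 and 113 CPM from E15.5 to the transplant. The fibroblast subtype (Hic1, Snai2, Dpt, Dcn and Lum) had the highest level, with 80.5, 199, 109 and 163. Mural cells had 86.6 at E17.5, 9.21 for P0 and 104 in the transplant, an 11.3-fold [7.01, 19.3] difference between the last pair. P0 was therefore the library with the lowest Igf1 in endothelium, stroma and mural cells, while its proximal tubule lay above E15.5 and E17.5.

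Igf1r, the receptor, was found in every epithelial, stromal and vascular class, and no class passed 2-fold in any of the 3 comparisons (0 of 7 in each). Podocytes, the filtering epithelium of the glomerulus, had 212, 175 and 182 CPM at E15.5, E17.5 and P0 and 105.2 in the transplant. Proximal tubule had 183, 97.0, 98.9 and 180, with overlapping intervals for E15.5 and the transplant and lower values in the other pair. Endothelium stayed at 74.2, 75.4 and 76.4 in situ, with overlapping intervals, and was 38.7 [33.8, 44.0] in the transplant, 1.97-fold [1.70, 2.30] below P0. Macrophages were the lowest class, with 17.7 at E15.5, 6.50 at E17.5 and 4.92 in the transplant on 12, 1 and 3 UMIs.

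Igfbp3, the main IGF carrier of adult serum, was a gene of endothelium and fibroblasts. It lies on chromosome 11 (GRCm38, 7206086 to 7213923, minus strand), 3539 bases from the end of Igfbp1 (7197782 to 7202546, plus strand). The neighbours are transcribed towards each other. Over 35 points of class and library their log2 levels had a Pearson r of -0.38, as a description. Whether single cells held both was not tested. The 250 bases before the start site of both genes are shown, from RefSeq (build GRCm38.p6, 5′ to 3′ on the strand of the gene), because these neighbours were highest in different classes.

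Igfbp1, chr11:7197537-7197786, plus strand: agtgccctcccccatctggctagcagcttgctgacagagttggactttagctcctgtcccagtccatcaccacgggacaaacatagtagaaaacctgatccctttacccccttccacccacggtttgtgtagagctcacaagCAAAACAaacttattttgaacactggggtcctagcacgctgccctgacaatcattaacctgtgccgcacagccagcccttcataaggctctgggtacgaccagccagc
Igfbp3, chr11:7213924-7214173, minus strand: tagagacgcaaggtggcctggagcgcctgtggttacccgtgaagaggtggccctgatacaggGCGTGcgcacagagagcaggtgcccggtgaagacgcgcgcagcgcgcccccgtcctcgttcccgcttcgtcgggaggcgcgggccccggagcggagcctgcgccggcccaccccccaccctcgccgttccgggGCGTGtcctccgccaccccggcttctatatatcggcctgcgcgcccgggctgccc

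Capitals in the Igfbp1 sequence mark CAAAACA, the core of the insulin response element bound by FOXO factors, which begins 108 bases before the start site. Capitals in the Igfbp3 sequence mark the hypoxia response core, searched as ACGTG or GCGTG, with 2 matches. The Igfbp1 window holds 1 match of that core too (GCGTG on the minus strand, beginning 74 bases before the start site), which is not in capitals. Searched on both strands, CAAAACA occurs in 5.56% and the hypoxia core in 38.6% of 32851 such windows, so neither match is rare enough to single out a gene. A match is a run of letters and not a measured binding site.

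In endothelium Igfbp3 was 259.9 CPM at E15.5 and 623 at E17.5, 1493 for P0, and 889 in the transplant. P0 was the highest library, 5.74-fold [5.46, 6.04] above E15.5, and by level the transplant lay between E17.5 and P0. After thinning, 28.8%, 57.1%, 76.2% and 46.5% of endothelial cells held an Igfbp3 UMI (74.4%, 81.1%, 91.9% and 65.2% at their own depth, medians 26202, 10022, 9038 and 7352 UMIs). By this share the transplant lay below E17.5, unlike by level. Podocytes, taken as background, reached at most 1.71% after thinning. Endothelium at P0 was also the class with the highest hypoxia and stress medians, 2.40 and 3.33, and whether these move Igfbp3 was not tested.

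The endothelial subtypes differed in the transplant. Arterial cells (Gja5, Sox17, Gja4, Hey1 and Bmx) had 304, 1009, 1277 and 1531 CPM in the order of the libraries, with the transplant highest. Glomerular cells (Ehd3, Sost, Smad6 and Gpihbp1) had 913 at E17.5, 1474 for P0 and 941 in the transplant. Capillary and venous cells had 219, 335, 1239 and 278, so that here the transplant was below E17.5 and P0 stood apart. One arterial cell held 16.9% of the Igfbp3 UMIs of its subtype at E17.5.

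Stroma had 74.1, 249, 318 and 349.7 CPM of Igfbp3, 4.30-fold [3.97, 4.66] more at P0 than at E15.5. The fibroblast subtype carried it, with 109, 536, 829.8 and 522. The nephrogenic zone subtype (Foxd1, Ntn1, Crabp1 and Aldh1a2) had 70.9, 144 and 142 at the 3 ages in situ, and the medullary subtype (Penk, Wnt4, Alx1, Lef1 and Wnt5a) at most 77.9. The stroma of P0 and of the transplant were close, with a ratio of 1.10 [1.01, 1.19] that turns to a log2 ratio of -0.08 under the stricter marker gate. In mural cells the transplant was 3.59-fold [2.63, 4.96] below P0, but this was lost with cells classed by clustering (log2 ratio 0.01), and 1 cell held 29.8% of the transplant's mural Igfbp3 UMIs.

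**Figure D3:**
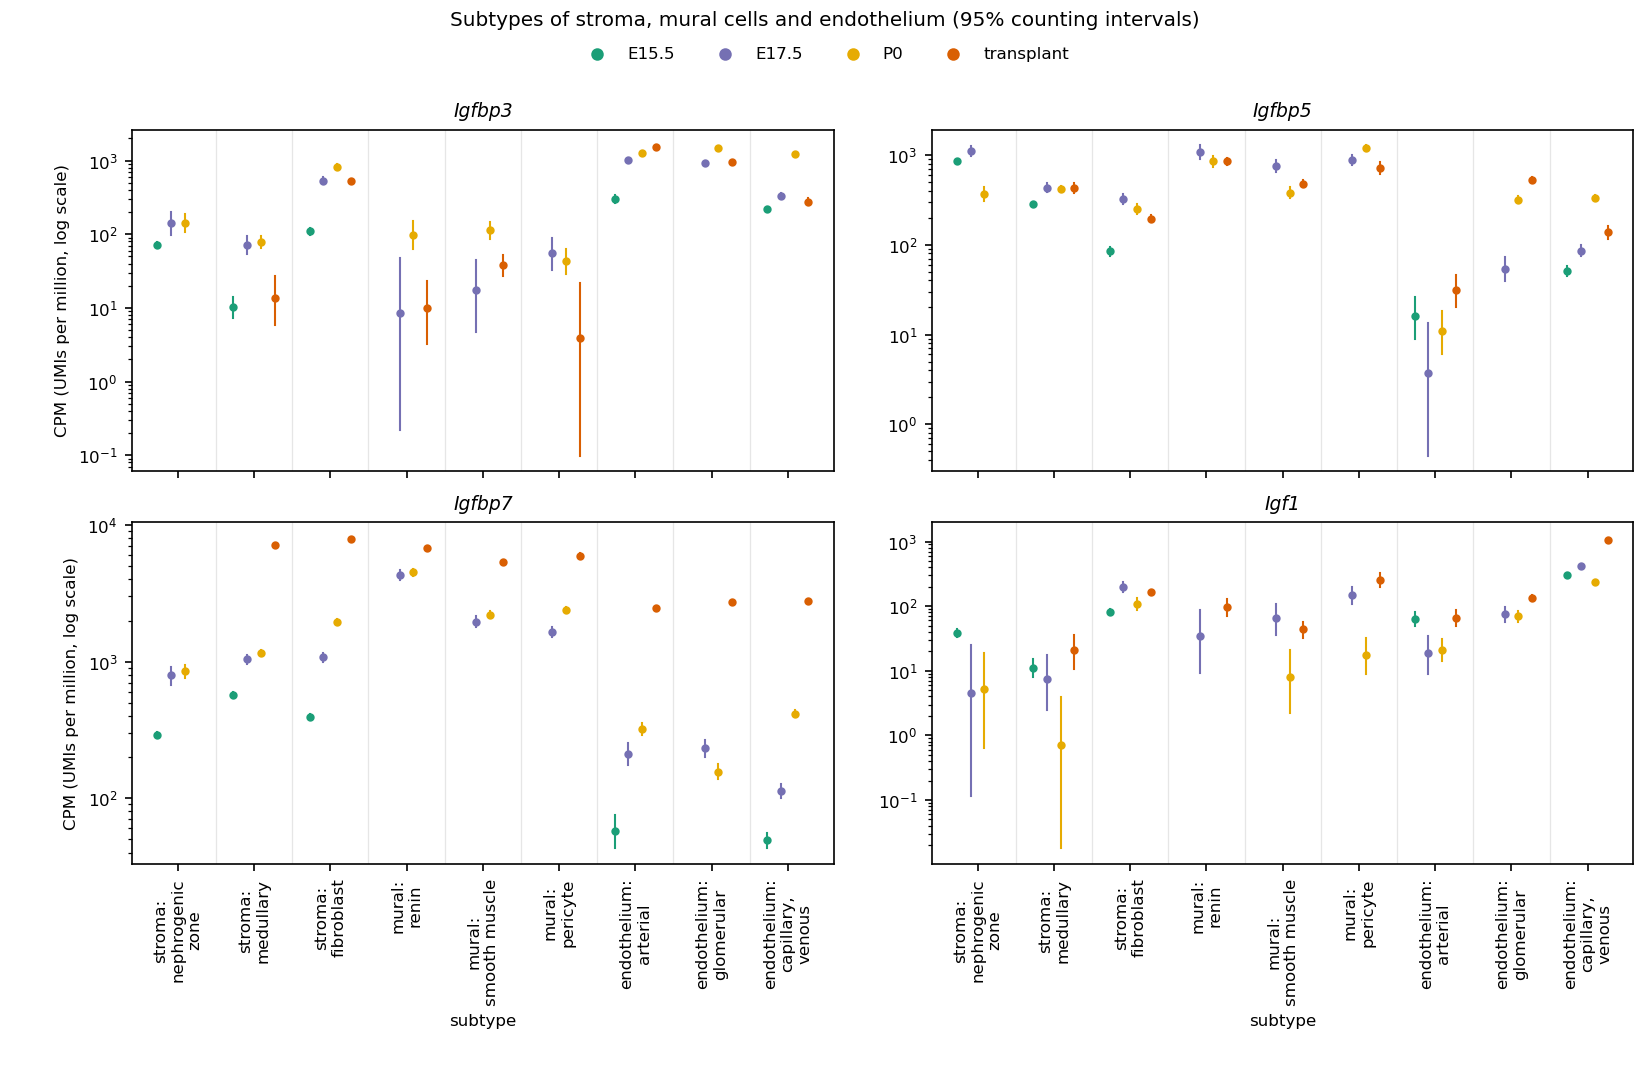
Levels of Igfbp3, Igfbp5, Igfbp7 and Igf1 in CPM (log axis) in 3 subtypes each of stroma, mural cells and endothelium. Points are libraries with at least 20 cells of the subtype and at least 1 UMI, and bars are exact Poisson 95% intervals. Among the endothelial subtypes Igfbp5 is lowest in arterial cells, and glomerular cells are highest only in the transplant. Igf1 is highest in capillary and venous endothelium of the transplant.

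Igfbp1, known as an insulin-regulated product of liver and decidua, was found mostly in proximal tubule. It had 17.1 [13.6, 21.3], 23.7 [20.2, 27.6], 38.0 [34.7, 41.5] and 41.0 [37.8, 44.3] CPM there. E15.5 was lowest and P0 was 2.22-fold [1.75, 2.85] above it, while P0 and the transplant had overlapping intervals. That ratio was below 2-fold with cells classed by clustering (log2 ratio 0.70) and as a mean over cells (0.86). Loop of Henle cells followed with 7.85 at E17.5, 23.8 for P0 and 12.4 in the transplant, and 1 cell held 25.9% of the P0 UMIs. Podocytes, stroma, mural cells and endothelium had at most 7 UMIs in any library. Intercalated cells, the acid-handling cells of the collecting duct, had 95.5 CPM at P0, but 1 of 44 cells held 25 of the 44 UMIs. None was counted in the 33 intercalated cells of the transplant, where 3 UMIs would be 10.9 CPM and the exact interval reaches 13.4.

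Igfbp5, a binding protein that also attaches to the matrix, lies 5457 bases from Igfbp2 on chromosome 1 (72857932 to 72874884, minus strand, against 72824503 to 72852474, plus strand). The nephrogenic zone stroma had 858 CPM at E15.5 and 1111 at E17.5, and 368 at P0. Stroma as a whole had 481, 543, 387 and 252, lowest in the transplant, where only 4 nephrogenic zone cells were found. Mural cells had 275, 806, 835 and 664, from 38 cells at E15.5 of which 1 held 25.1% of the UMIs. Renin cells were at 1077, 851 and 849 in the last 3 libraries and pericytes at 880.1, 1187 and 712. In nephron progenitors, the cells that form the nephron epithelium, Igfbp5 was 147, 251 and 159.8 in situ. E17.5, which is also of another strain than E15.5 and P0, was the highest of the 3.

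Endothelial Igfbp5 was low at E15.5 and E17.5, with 40.01 and 53.8 CPM, and higher at P0 and in the transplant, with 206.5 and 246. P0 was 5.16-fold [4.54, 5.89] above E15.5, and the transplant 4.56-fold [4.02, 5.20] above E17.5. The glomerular subtype had 54.0 at E17.5, 316 for P0 and 527 in the transplant, with 8.20%, 33.3% and 48.7% of its cells holding a UMI after thinning (18.0%, 51.5% and 63.3% before). Arterial cells stayed between 3.70 and 31.4 in the 4 libraries, with shares of 1.79% to 6.98% after thinning. Capillary and venous cells had 50.7, 85.6, 335 and 138, and in the transplant 1 cell of this subtype held 55.5% of the UMIs.

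In proximal tubule, collecting duct and podocytes Igfbp5 was lower at P0 than at E15.5, while early nephron cells had 29.1 and 31.7 CPM. Proximal tubule had 223 CPM at E15.5 and 137, 102.4 and 113 in the later libraries, and P0 was 2.18-fold [2.01, 2.36] below E15.5. Collecting duct and ureteric bud cells, classed together, had 123, 64.9, 49.7 and 22.4, with each library below the one before and P0 2.48-fold [2.12, 2.90] below E15.5. Loop of Henle cells had 15.7, 6.18 and 27.8 at E17.5, P0 and in the transplant, which was 4.50-fold [2.83, 7.50] above P0 on 21 and 135 UMIs.

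Igfbp2, a major binding protein of fetal serum, was lower in the transplant than at P0 in all 7 classes by at least 2-fold. With cells thinned to the same depth, proximal tubule (log2 ratio -0.99) and mural cells (-0.64) no longer passed 2-fold. Igfbp2 was at least 2-fold lower than at E17.5 in 4 of the 5 classes with enough UMIs. Of these, mural cells no longer passed under the stricter gate, as a mean over cells or after thinning. Collecting duct and ureteric bud cells had 223, 104.5, 133 and 3.30 CPM, the last on 5 UMIs in 93 cells. The transplant was 40.4-fold [17.2, 125] below P0 there. Stroma had 110, 159, 127 and 15.6, an 8.12-fold [6.13, 10.9] difference from P0 that held in the fibroblast subtype (110 at P0 and 9.36 in the transplant) and the medullary subtype (176 and 20.6). Loop of Henle cells had 29.1 at P0 and 1.44 in the transplant, and endothelium 12.9 and 1.86. The smallest difference was in proximal tubule, with 63.6, 49.5, 122 and 38.1, where the transplant was 1.30-fold [1.13, 1.49] below E17.5 and 3.20-fold [2.91, 3.52] below P0. Nephron progenitors had 131, 167 and 150.1 in situ, highest at E17.5, where age and strain cannot be told apart. Early nephron cells had 89.2 [80.1, 99.0], 111 [96.3, 126] and 129 [120.1, 138], with separate intervals for E15.5 and P0. After thinning, 19.8%, 18.4% and 21.5% of early nephron cells held an Igfbp2 UMI (82.9%, 54.2% and 71.7% before). The ratio of P0 to E15.5 changed sign with thinned cells in early nephron and in nephron progenitors.

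Cells of the transplant that met no class gate still had 94.1 CPM of Igfbp2, beside 156 in such cells at P0. These cells were 2395 of 6268 in the transplant and 3235 of 7568 at P0, and include cells too shallow to be thinned (1247 and 398). Their identity was not tested, and they enter no comparison.

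Igfbp4, a high-affinity binder and the classical target of the protease PAPP-A, differed between libraries in opposite directions by class. Endothelium had 897, 649.8, 542 and 450.0 CPM, each library below the one before. Stroma had 406, 402, 475 and 945, with the transplant 2.35-fold [2.18, 2.53] above E17.5 and 1.99-fold [1.88, 2.11] above P0. Mural cells had 170.2, 189, 253 and 390.2, again highest in the transplant. Collecting duct and ureteric bud cells had 130.4, 89.1, 115 and 19.8, and the transplant was 4.50-fold [3.09, 6.80] below E17.5. In proximal tubule the levels were 603, 452, 463 and 723, so the in situ library nearest to the transplant was E15.5. Podocytes were low in every library, with 42.3, 22.7, 16.0 and 21.9, and P0 was 2.64-fold [1.77, 3.97] below E15.5, which was not 2-fold without doublet removal (log2 ratio -0.63).

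Igfbp6, which prefers IGF2 to IGF1, was found in podocytes and stroma and at under 6 CPM in mural cells, endothelium and collecting duct. Podocytes had 130.2 [113, 149.9], 47.9 [36.5, 61.8], 101.6 [90, 114] and 74.7 [65.7, 84.5] CPM, with the libraries out of order of age. The lowest, E17.5, is also of another strain than E15.5 and P0. Stroma had 99.9, 69.3, 25.8 and 70.4, so P0 was lowest, 3.88-fold [3.15, 4.82] below E15.5, and the transplant 2.73-fold [2.15, 3.50] above P0. The 248 UMIs of the transplant were in 29 of 566 stromal cells, with 17.3% in 1 cell, and the share of cells with a UMI was 5.12% beside 8.78% at P0 (3.89% and 3.47% after thinning). The subtype that held it was not the same. At E15.5 the nephrogenic zone had 196 and fibroblasts 20. At E17.5 they had 85.5 and 103, and at P0 28.5 and 22.5. In the transplant fibroblasts had 108, close to their level at E17.5. Proximal tubule had 22.8, 11.2, 26.1 and 39.0, and the transplant was 3.48-fold [2.75, 4.47] above E17.5.

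Igfbp7 was highest in the transplant in each of the 7 classes in which it was compared with the other libraries. At least 2-fold higher levels were found in 4 of 7 classes for P0 against E15.5 and in 6 of 7 for the transplant against both E17.5 and P0, and no class was 2-fold lower. Scaled by the median gene, proximal tubule against E17.5 (log2 ratio 0.95) and collecting duct (0.95) and mural cells (0.88) against P0 were below 2-fold, as were mural cells against P0 under the stricter gate (0.85). Podocytes at P0 against E15.5 were below it without doublet removal. Among whole classes podocytes had the highest level in every library, with 1990, 6086, 4143 and 10708 CPM. Renin cells, a mural subtype given below, lay above podocytes at P0. E17.5 was above P0 in podocytes, and the transplant was 1.76-fold [1.72, 1.80] above E17.5. The gene lies on chromosome 5 (77349240 to 77408041, minus strand). Its 250 bases before the start are shown because this gene was higher in the transplant in classes of unlike origin; capitals mark the GC box GGGCGG on either strand, found 4 times here and at least once in 32.7% of the 32851 windows.

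Igfbp7, chr5:77408046-77408295, minus strand: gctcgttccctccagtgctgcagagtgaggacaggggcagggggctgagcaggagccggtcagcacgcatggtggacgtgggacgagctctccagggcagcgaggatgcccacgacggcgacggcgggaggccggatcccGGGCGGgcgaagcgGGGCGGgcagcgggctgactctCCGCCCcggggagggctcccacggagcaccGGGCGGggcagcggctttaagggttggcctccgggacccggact

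Stromal Igfbp7 was 375, 899, 1294 and 7572 CPM. Each library lay above the one before, and the transplant was 8.43-fold [8.05, 8.82] above E17.5 and 5.85-fold [5.67, 6.04] above P0. Fibroblasts had 391, 1077, 1941 and 7933, and medullary stroma 569, 1037, 1161 and 7155, so both subtypes showed it. Mural cells had 1410, 2201, 2674 and 5758. Among them renin cells led in all 3 libraries with at least 20 of them, with 4307 at E17.5, 4520 for P0 and 6848 in the transplant.

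Endothelial Igfbp7 was low in situ, with 46.5 [41.5, 52.0], 147 [136, 157] and 249.9 [240.3, 259.9] CPM at E15.5, E17.5 and P0, and 3270 [3224, 3317] in the transplant. The transplant stood apart from the other libraries, 22.3-fold [20.8, 24.0] above E17.5 and 13.1-fold [12.6, 13.6] above P0. Each subtype showed it. Arterial cells had 57.7, 211, 320.0 and 2457, glomerular cells 233, 157 and 2740 in the last 3 libraries, and capillary and venous cells 49.1, 113, 416 and 2762. One cell held 19.9% of the endothelial Igfbp7 UMIs at E15.5.

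The share of endothelial cells with an Igfbp7 UMI after thinning was 4.65%, 18.7%, 24.2% and 85.7% [82.7, 88.3] (45.6%, 43.8%, 53.3% and 95.6% at their own depth). In the transplant, lymphoid cells had 44.0% [29.99, 58.7] after thinning and macrophages 28.6% [19.9, 38.6] (60.0% and 54.1% before, median depths 2782 and 5430 UMIs), with levels of 299 and 162 CPM. These classes serve as background for free RNA, and the endothelial share and level of the transplant are above both. At E15.5 the endothelial share was below the 10.3% [2.87, 24.2] of macrophages (25.6% before thinning), on 4 of 39 cells, while the endothelial level was above the macrophages' 20.6 CPM [11.3, 34.6] and so was the share at their own depth. The endothelial level at P0 was 5.37-fold [4.77, 6.07] above that at E15.5. The 9 podocyte markers summed to 160.5, 206, 249 and 305 CPM in endothelium, and the 13 stromal markers to 146, 73.8, 56.4 and 87.7. The gate limits these sums, since cells with many such UMIs were not classed as endothelium. Whether endothelium makes any of these markers itself was not tested, so the sums do not measure carried-over RNA.

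**Figure D4:**
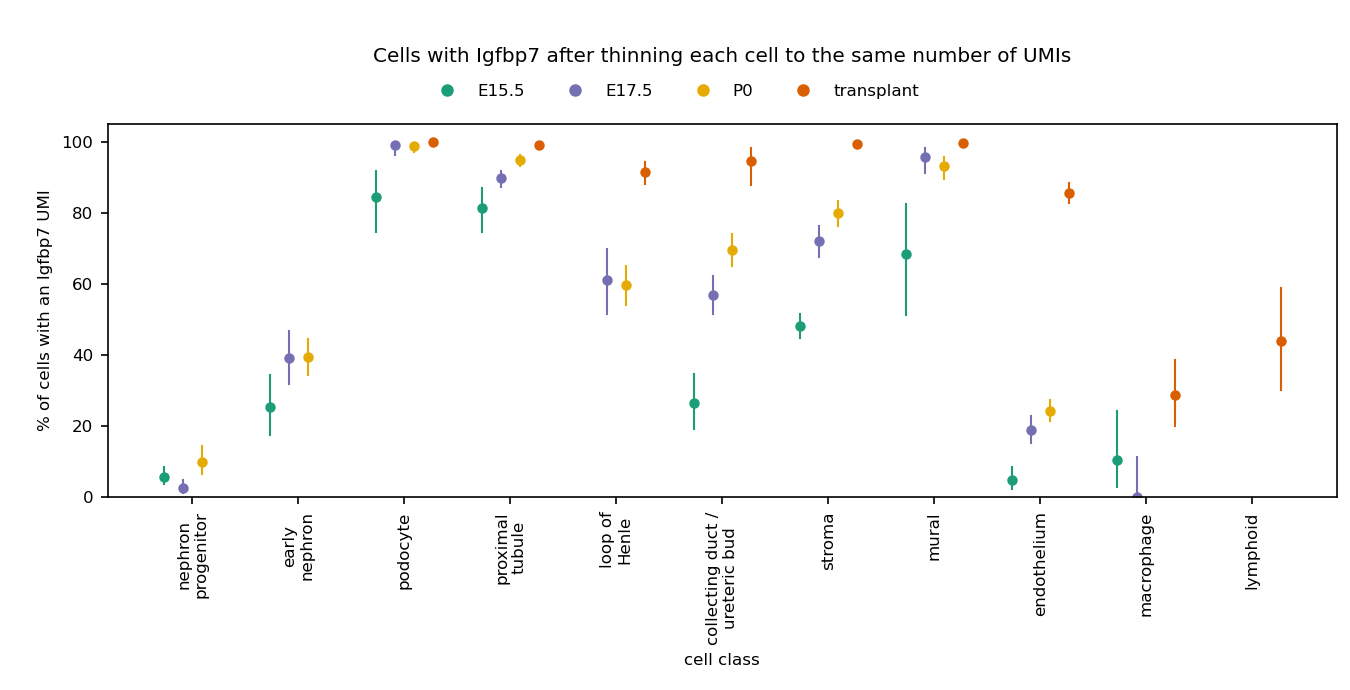
Percent of cells with at least 1 Igfbp7 UMI after thinning each cell to 2000 UMIs, by class and library, with exact 95% binomial intervals (bars). Endothelium of the transplant lies at 85.7%, above its lymphoid cells at 44.0% and above endothelium of the other libraries at 4.65% to 24.2%.

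In the tubular epithelia Igfbp7 was highest in the transplant. Collecting duct and ureteric bud cells had 163, 499.7, 697 and 1762 CPM, 4.26-fold [3.92, 4.64] more at P0 than at E15.5. Proximal tubule had 1009, 1495, 1874 and 3195, where the ratio of the transplant to P0, 1.71 [1.68, 1.73], did not reach 2-fold. Loop of Henle cells had 827, 772 and 2374 at E17.5, P0 and in the transplant. Nephron progenitors were the lowest class of the nephron lineage, with 31.4, 25.7 and 52.4 in situ.

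Genes whose level followed a member most closely were sought among 9133 genes over the same 35 points of class and library, as a description. Points share libraries and depth, and no test was made. For Igfbp3 the nearest was Ldb2 (Pearson r 0.943), then Grasp (0.912) and Lrrc32 (0.909). For Igfbp1 it was Ggt1 (0.919), which encodes a brush border transferase, and for Igf1 it was Slfn5 (0.884), followed by Acvrl1 (0.86), an endothelial receptor of BMP9. Igfbp6 was nearest to Wnt5b (0.87), Igfbp7 to Spcs1 (0.87), Igf1r to Phldb2 (0.876), Igfbp2 to Lsm12 (0.874) and Mdk (0.851), Igfbp4 to Tgm2 (0.816) and Igfbp5 to Gamt (0.80). Among the members themselves the closest pairs were Igfbp3 with Igf1 (0.74) and Igfbp4 with Igf1 (0.67).

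The rest of the pathway was followed in a list of 33 genes. For P0 against E15.5, 26 of 162 gene and class pairs were at least 2-fold higher and 14 lower (16.0% and 8.64%, beside 7.02% and 7.69% over all genes), with a median log2 ratio of 0.01 beside -0.10 over all genes. In the transplant against E17.5, 19 of 161 were higher and 34 lower (median -0.07 beside 0.11), and against P0 11 of 165 were higher and 35 lower (median -0.13 beside 0.27). Higher levels in the transplant passed 2-fold in 11.8% of pathway pairs against E17.5 and 6.67% against P0, beside 9.80% and 12.9% over all genes. Lower levels passed 2-fold in 21.1% and 21.2% of pathway pairs, beside 5.05% and 5.74% of pairs over all genes.

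Igf2, the other ligand, was at least 2-fold lower in the transplant than at P0 in all 7 classes. In endothelium it had 2703 CPM at E17.5, 1962 for P0 and 191 in the transplant, and in stroma 1282, 620 and 41.7. The 3 IGF2 mRNA-binding proteins, which bind Igf2 transcripts, had median log2 ratios by class of -0.75 to -3.08 for the transplant against P0. In endothelium Igf2bp1 was 98.3 at E15.5 and 39.7 at E17.5, 24.9 for P0, and 1.52 in the transplant, and in stroma it was 81.2, 32.4, 32.6 and 3.41.

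Proteases and their regulators differed by class. Htra1, a secreted protease that can cut binding proteins, was 12.8 CPM in podocytes at E15.5 and 146 at E17.5, 94.7 for P0, and 409 in the transplant. In stroma it was 1.31 at E15.5 and 8.44 at E17.5, 10.97 for P0, and 40.3 in the transplant. Pappa, which encodes PAPP-A, was 139.6 at E15.5 and 33.3 at E17.5, 71.4 for P0, and 2.70 in the transplant in podocytes, and 4.48 at E15.5 and 16.2 at E17.5, 36.4 for P0, and 15.8 in the transplant in collecting duct and ureteric bud cells. Stc1, an inhibitor of PAPP-A, was 25.0 at E15.5, 140.1 at P0 and 34.1 in the transplant in endothelium, the class where Igfbp3 was also highest at P0.

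Inside the cell, Irs2, an adaptor that links the receptor to PI3K, was lower in the transplant than at P0 in all 7 classes by at least 2-fold. In podocytes it had 6.04, 26.8, 87.4 and 9.89 CPM in the order of the libraries, and in proximal tubule 6.55, 19.2, 46.5 and 9.07. P0 was the highest library in both classes. Grb10, an adaptor that restrains the receptor, was 219 at E17.5, 185 for P0 and 75.2 in the transplant in mural cells, and 129, 141 and 54.8 in collecting duct and ureteric bud cells.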

How the data were processed

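Single cells of 4 libraries, 1 per group, were captured with 10x Chromium 3′ chemistry, per the labels' protocols. The authors deposited whole-number UMI counts per gene and cell, not normalized, made with Cell Ranger 3.1.0 on GRCm38, per the submitters' processing notes, while the file headers give software versions 3.0.2 and 3.1.0. A joined matrix of 3 libraries was not used.

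Cells were kept from 500 genes up and to a limit of 20% mitochondrial UMIs, and the highest Scrublet scores were removed as doublets at 0.8% per 1000 cells. Each cell was thinned to 2000 UMIs and put in a class where at least 3 UMIs of at least 2 of its markers were found, at least 2 times those of the next class. Subtypes were gated on all UMIs, with at least 2 marker UMIs and 2 times the next. UMIs were summed per class and library and divided by the class total. Levels, ratios and shares have exact 95% intervals for counting error. A count of 0 was read against 3 counts. Pairs of gene and class were counted from 2-fold up, with at least 50 UMIs over both libraries and 50 cells in each. List medians used a pseudocount of 0.5 and likeness log2(CPM + 1), among genes with a mean of at least 10.

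The 9 members are all named. Of each list, the 2 highest and 2 lowest genes by ratio in a comparison and class may be named, and the 3 most alike genes per member. Members and lists were chosen with earlier results of these data known. The ratios were tested on simulated counts. The gate was tested on cells drawn from the P0 profiles of the classes it had itself formed, which cannot show that those classes are right. Alternatives were other cell filters, no doublet removal, joint Leiden clusters (resolution 1.5), a stricter gate (5 UMIs, 3 times), scaling by the median gene, means over cells, thinned counts, no count filter and 1.5-fold. Python 3.11.15, numpy 2.4.6, scipy 1.17.1, pandas 2.3.3, scanpy 1.11.5 and leidenalg 0.10.2 were used.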

Additional observations from a re-analysis of the deposited data

Results flagged for a closer look

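In 5 cases a member was at least 2-fold higher in one class and at least 2-fold lower in another under the same comparison. None of these differences between classes was tested, since there was 1 library per group. Igfbp5 at P0 against E15.5 was 5.162-fold higher in endothelium and 2.477-fold lower in collecting duct and ureteric bud. Igf1 in the same comparison was 3.572-fold higher in proximal tubule, a ratio below 2-fold without doublet removal and with clusters, and 2.113-fold lower in endothelium. For the transplant against E17.5, Igfbp4 was 2.351-fold higher in stroma and 4.504-fold lower in collecting duct and ureteric bud. Igfbp5 in that comparison was 4.563-fold higher in endothelium and 2.895-fold lower in collecting duct and ureteric bud. For the transplant against P0, Igfbp5 was 4.499-fold higher in loop of Henle cells and 2.216-fold lower in collecting duct and ureteric bud.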

How the results depend on the processing

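No paired analysis was possible because each group had 1 library. With 1 library per group no setting measures the spread between animals, and low levels such as the 5 UMIs of Igfbp2 in transplant collecting duct are limited by counting. Member pairs at least 2-fold higher at P0 than at E15.5 numbered 15 in place of 9 at 1.5-fold, and lower ones 11 with joint clusters, 12 with no count filter and 13 at 1.5-fold in place of 7. For the transplant against E17.5, higher member pairs numbered 20 at 1.5-fold in place of 11, and lower ones 4 with thinned cells and 13 with no filter in place of 8. Against P0, lower member pairs numbered 4 with thinned cells and 16 at 1.5-fold in place of 10. Pathway pairs for P0 against E15.5 numbered 49 (no filter) and 50 (1.5-fold) higher in place of 26, and 30 and 33 lower in place of 14. Against E17.5 the transplant's pathway pairs numbered 9 (thinned), 45 (no filter) and 35 (1.5-fold) higher in place of 19, and 16 (thinned) lower in place of 34. Against P0 they numbered 20 (clusters), 7 (scaled by the median gene), 5 (thinned), 34 (no filter) and 29 (1.5-fold) higher in place of 11, and 54 (1.5-fold) lower in place of 35. Before the filter on counts, 8 of the 10 lower member pairs against P0 and 6 of the 8 against E17.5 were still 2-fold lower in thinned cells. Dropping the filter or the fold adds pairs by construction, and for the other settings the cause was not tested.

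Of 146 log2 ratios of members, 146 moved by less than counting error with at least 1000 genes per cell, 100 with clusters, 95 with scaling and 75 of 143 with thinned cells. Changes of sign were listed only for ratios whose 95% interval left out a ratio of 1. Those that changed sign for P0 against E15.5 were Igfbp4 in collecting duct (0.05 with clusters, 0.07 scaled) and nephron progenitors (0.00 with clusters), Igf1r in nephron progenitors (0.12 thinned), and Igfbp2 in early nephron (-0.04 thinned), nephron progenitors (-0.12 thinned) and stroma (-0.02 as a mean over cells, -0.13 thinned). In the transplant against E17.5 it was Igfbp5 in mural cells (0.14 with clusters). Against P0 they were Igfbp5 in endothelium (-0.04 scaled) and proximal tubule (-0.06 scaled), Igfbp1 in loop of Henle (0.78 thinned), Igfbp3 in mural cells (0.01 with clusters) and stroma (-0.08 with the stricter gate, -0.08 scaled), and Igfbp6 in proximal tubule (-0.02 with clusters).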
